A study of Mus musculus with 7 samples.

Results

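The genes described here encode proteins that the mouse prostate secretes into seminal fluid and that are made in unlike amounts by its lobes: Pbsn, Msmb, Tgm4, Sbp, Azgp1 and Spink1. They were chosen by name, and every probe set that the platform annotation gives to one of them was taken, which found 6 probe sets of 45037, 1 per gene. A probe set is a group of short array probes that report on the same transcript. The probe set of Sbp is also annotated to Sbpl, a neighbouring gene of similar name on chromosome 17, so it is written Sbp/Sbpl and its signal cannot be assigned to either gene alone. The samples were luminal cells, the secretory cells that line the gland, sorted by flow cytometry from mouse prostates and measured on Affymetrix Mouse Genome 430 2.0 arrays. In T-ETV1 mice the endogenous Tmprss2 promoter drives the human cDNA of ETV1, an ETS transcription factor, and these mice gave 4 arrays, lettered A to D. Wild-type mice (WT) gave 3, lettered A to C. The sort kept Sca1-negative cells with CD49f that lacked the blood and endothelial antigens CD31, CD45 and Ter119. For T-ETV1 the sort also required GFP, so that genotype and GFP gate cannot be told apart. The sources used here do not give lobe, strain, age or any pooling of animals. The series text speaks of 3 biological replicates where the labels give 4 and 3, so the arrays are the replicates of the tests, of whatever origin. The SEs, intervals and p-values from limma below also draw on a spread shared over all genes or probe sets fitted. For probe sets as bright as the members they can therefore be wider than the spread of their own arrays.

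The mouse prostate has anterior, dorsal, lateral and ventral lobes, which drain separately and differ in the proteins they release. Luminal cells make these proteins under control of androgens, pass them through the endoplasmic reticulum and Golgi, and release them into the lumen, from where they join the secretions of the seminal vesicle. Some of the members act in the coagulation of semen, some inhibit proteases, and some bind small molecules such as polyamines.

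The RefSeq promoter table (assembly GRCm38.p6) held 4 of the 5 members looked up in it (Pbsn, Tgm4, Sbp and Azgp1). The windows of the 3 members with 1 annotated start and a probe set of their own are shown because these genes gave strong signal in every array below. Each window runs from 250 bases before the transcription start to 50 bases from it, 5′ to 3′ on the gene's strand. Capitals mark AGAACA or its reverse complement TGTTCT, a half-site of steroid hormone response elements, searched on both strands, and TATAAA, the TATA box, searched on the sense strand. The 2 motifs do not overlap in these windows.
Pbsn, chrX:77853451-77853750, minus strand: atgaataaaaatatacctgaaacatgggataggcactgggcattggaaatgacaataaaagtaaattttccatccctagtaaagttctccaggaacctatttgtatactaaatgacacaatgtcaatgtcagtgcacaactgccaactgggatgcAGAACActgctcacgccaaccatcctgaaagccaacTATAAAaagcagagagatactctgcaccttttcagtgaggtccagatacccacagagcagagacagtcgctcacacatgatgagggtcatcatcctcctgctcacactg
Tgm4, chr9:123034491-123034790, plus strand: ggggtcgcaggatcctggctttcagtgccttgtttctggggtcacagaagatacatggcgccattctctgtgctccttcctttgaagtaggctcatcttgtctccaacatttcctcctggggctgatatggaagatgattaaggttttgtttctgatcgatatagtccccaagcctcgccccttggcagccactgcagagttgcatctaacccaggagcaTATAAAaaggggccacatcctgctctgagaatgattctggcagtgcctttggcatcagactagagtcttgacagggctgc
Azgp1, chr5:137981271-137981570, plus strand: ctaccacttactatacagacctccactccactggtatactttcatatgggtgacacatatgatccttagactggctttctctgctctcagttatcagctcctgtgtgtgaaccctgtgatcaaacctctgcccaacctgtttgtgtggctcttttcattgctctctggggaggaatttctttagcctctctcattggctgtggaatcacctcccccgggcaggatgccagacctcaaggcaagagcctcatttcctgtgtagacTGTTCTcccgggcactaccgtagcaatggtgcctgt
The Pbsn window held AGAACA at -95 to -90 and TATAAA at -59 to -54, counted from the start as 1 with no base 0. The Tgm4 window held TATAAA at -30 to -25 and no half-site. The Azgp1 window held TGTTCT at 15 to 20, downstream of the start, and no TATAAA. Sbp has 3 annotated starts, of which the third had TGTTCT at -64 to -59. Of all 32851 promoter windows, 19.0% held the half-site on either strand and 8.32% held TATAAA on the sense strand, so the half-site is common by its letters alone. The full palindrome, AGAACA and TGTTCT with 3 bases of any kind between them, was in 0.00913% of the windows and in none of those of the 4 members. A match is a string of letters, not a measured binding site.

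All 6 probe sets were strong in all 7 arrays, and none differed between T-ETV1 and WT past the threshold. The 42 values lay between 6657 and 13633 in deposited intensity, 35 of them at or over 10000. The highest intensity of any probe set lay between 13862 and 14597 in an array, and between 98 and 115 probe sets of an array reached 10000. The 5 members other than Azgp1 were at or over 10000 in every array, close to the ceiling of the signal, where a true difference may appear smaller. Azgp1, at 6657 to 8662, lay below that. Intensities of unlike probe sets are not compared here, since probes differ in how well they bind. Of the 6 members, 3 were higher and 3 lower in T-ETV1, with a median log2 difference of 0.01, against -0.03 over all 18193 genes. These differences are T-ETV1 minus WT on the scale of log2(intensity + 16), from a limma fit over all genes, or over all probe sets for Sbp/Sbpl. No member had an adjusted p under 0.05, the share called over all genes being 0.0% (0 of 18193; 1113 genes, or 6.12%, had an unadjusted p under 0.05). The adjusted p values of the members lay between 0.876 and 0.996. In a bulk sample, fewer cells of a type and less RNA per cell cannot be told apart.

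**Figure D1:**
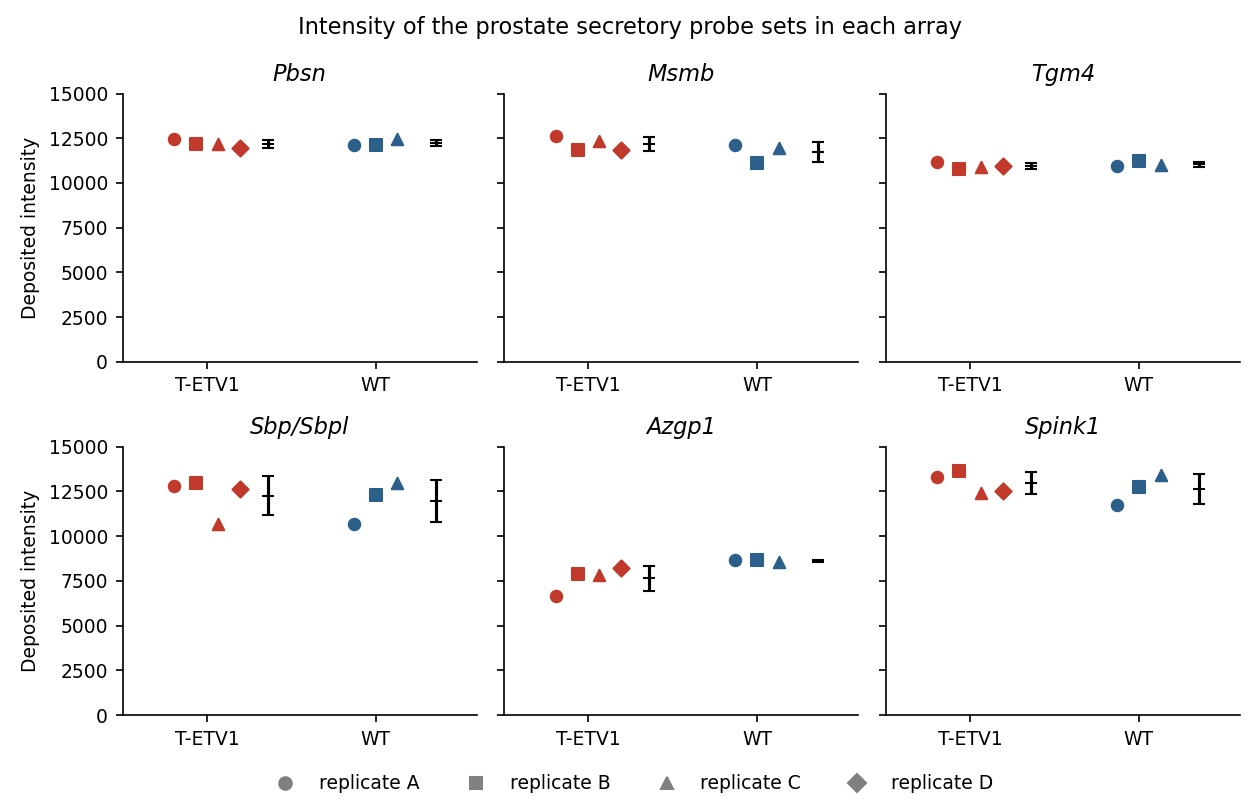
Deposited intensity (linear axis from 0) of each probe set in the T-ETV1 arrays (red, left) and the WT arrays (blue, right). Symbols give the replicate letter, and the bar beside each group is the mean with the SD (n = 4 and n = 3). Azgp1 is the member whose T-ETV1 arrays, at 6657 to 8205, all lie below its WT arrays, at 8571 to 8662.

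Pbsn encodes probasin, a secreted protein of the lipocalin family whose androgen-driven promoter is widely used to direct transgenes to the mouse prostate. It had intensities of 12433, 12158, 12163 and 11930.2 in T-ETV1 A to D, against 12142, 12111 and 12447 in WT A to C. The groups overlapped, and the highest of the 7 values was 1.04 times the lowest. The means were 12171 ± 206 in T-ETV1 (SD, n = 4) and 12233 ± 186 in WT (SD, n = 3). The log2 difference was -0.01 ± 0.08 (SE), with a 95% interval of -0.21 to 0.19. This SE comes largely from the spread shared over all genes. The SD of the log2 values was 0.024 in T-ETV1 and 0.022 in WT, and trend and robust eBayes gave an SE of 0.0245. A difference this near 0 changed its sign under several settings, as when WT C was left out (0.01).

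Tgm4 encodes the prostate transglutaminase, which cross-links proteins of the seminal fluid and in mice takes part in forming the copulatory plug. Its intensities were 11158, 10763, 10866 and 10972 in T-ETV1 A to D, against 10931, 11206 and 11017 in WT A to C. As for Pbsn, the groups overlapped and the arrays spanned 1.04 times. The log2 difference was -0.01 ± 0.08 (SE), with a 95% interval of -0.22 to 0.19. Median centring of the arrays turned it to 0.12, still not past the threshold.

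Msmb encodes beta-microseminoprotein, a small cysteine-rich protein that is abundant in human seminal plasma. It had 12614, 11849, 12339.6 and 11867 in T-ETV1 A to D, against 12143, 11119 and 11932 in WT A to C. WT B was the lowest array and T-ETV1 A the highest. The means were 12168 ± 375 in T-ETV1 (SD, n = 4) and 11731 ± 541 in WT (SD, n = 3), a log2 difference of 0.05 ± 0.09 (SE; 95% interval -0.16 to 0.27). T-ETV1 was higher in all 3 pairs of arrays with the same letter, by 0.05 for A, 0.09 for B and 0.05 for C on the log2 scale. An exact two-sided permutation test gave p = 0.343.

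Spink1 encodes a Kazal-type trypsin inhibitor known from the pancreas, which in the mouse is also secreted by male accessory glands. Its intensities were 13325, 13633, 12389.8 and 12516 in T-ETV1 A to D, against 11768, 12746 and 13429.6 in WT A to C. Each group held arrays on both sides of the other group's middle. The log2 difference was 0.04 ± 0.10 (SE; 95% interval -0.20 to 0.27), and it turned to -0.01 without WT A, the lowest array.

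Sbp encodes a spermine-binding protein of the mouse ventral prostate, and Sbpl is its relative. The shared probe set had 12793, 12993, 10661 and 12644 in T-ETV1 A to D, against 10687, 12328 and 12953 in WT A to C. In each group 1 array stood below the others, T-ETV1 C and WT A. The means were 12273 ± 1084 in T-ETV1 (SD, n = 4) and 11989 ± 1171 in WT (SD, n = 3), a log2 difference of 0.03 ± 0.13 (SE; 95% interval -0.28 to 0.35). Without WT A the difference was -0.05. The difference between the letter pairs ran both ways, at 0.26 for A, 0.08 for B and -0.28 for C.

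Azgp1 encodes zinc-alpha-2-glycoprotein, a secreted protein with the fold of a class I histocompatibility molecule that in mice is linked to fat mobilisation. It had 6657, 7910.3, 7808 and 8205 in T-ETV1 A to D, against 8662, 8646 and 8571 in WT A to C. All 4 T-ETV1 arrays were below all 3 WT arrays, which lay close together, and T-ETV1 A was the lowest. The mean was 7645 ± 679.9 in T-ETV1 (SD, n = 4), which was 88.6% of the mean of 8626 ± 48.7 in WT (SD, n = 3). The log2 difference was -0.18 ± 0.11 (SE; 95% interval -0.44 to 0.08), with a limma adjusted p of 0.876. The exact two-sided permutation p was 0.0571, the smallest that 4 against 3 arrays allow, and 0.343 after Benjamini-Hochberg adjustment over the 6 members. Groups that do not overlap, with T-ETV1 lower, were found in 3.9% of all genes (710 of 18193). With T-ETV1 higher the share was 2.42%, and in either direction 6.32% of genes and 6.28% of probe sets, against 1 of the 6 members. Azgp1 was also the single member lower by 0.1 or more on the log2 scale, as were 37.4% of all genes. That share covers genes of all intensities, and dimmer probe sets differed more. The median absolute log2 difference was 0.018 for probe sets with a mean of 8000 or more, and 0.21 between 100 and 1000. The difference was -0.13 for the B arrays, -0.13 for the C arrays and -0.38 for the A arrays, and without T-ETV1 A it was -0.11 overall. After quantile normalization the groups still did not overlap, while after median centring they did (difference -0.04).

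**Figure D2:**
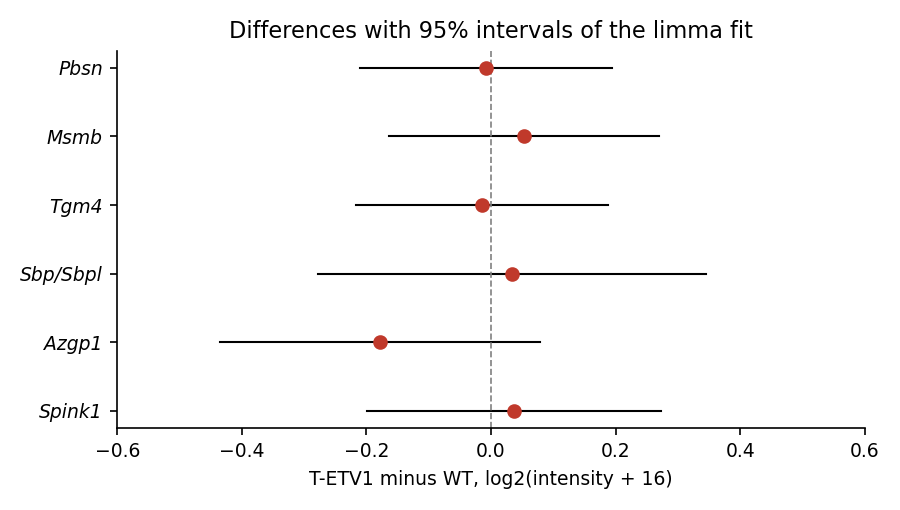
Log2 difference, T-ETV1 minus WT, of each member (horizontal axis, log2(intensity + 16)), with the 95% interval of the limma fit as a line. All 6 intervals include 0, and the one of Azgp1 runs from -0.44 to 0.08. Their widths draw on a spread shared over all genes or probe sets fitted, not only on the arrays of the member.

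Most markers of other cells gave less signal than the members. Probe sets span more in general at lower intensity, so the spread of these markers is not set against that of the members. Many were not dim: a mean intensity over 100 was found for 7 of 7 basal, 6 of 7 fibroblast and 6 of 7 leukocyte markers. For endothelial markers it was 4 of 7, and for smooth muscle markers 3 of 7. The summed intensity of 7 endothelial markers was 84.8 to 1537 in T-ETV1 and 1063 to 3621 in WT, with all 7 lower in T-ETV1. The highest T-ETV1 sum was in array C, and the highest WT sum too. That of 7 fibroblast markers was 1813 to 8515 in T-ETV1 and 3806 to 20501 in WT, and that of 7 basal cell markers 553 to 15696 in T-ETV1 and 5088 to 18359 in WT, again with all members lower. For 7 smooth muscle markers, all lower, the sum was 2053 to 2576 in T-ETV1 and 2280.5 to 6973 in WT. For 7 leukocyte markers, 2 higher and 5 lower, it was 6559 to 14751 in T-ETV1 and 7221 to 24684 in WT. In most arrays much of each of these sums came from 1 marker. Mylk alone was at 1833 to 2410 in T-ETV1 and 1913 to 2472 in WT. Cd52 alone was at 5751 to 9153 in T-ETV1 and 6657 to 7259 in WT. None of these markers passed the threshold, and none was listed at 0. The 8 luminal markers measured summed to 55699 to 65388 in T-ETV1 and 57865 to 62416 in WT. Among them the keratin Krt8 averaged 6581 ± 1333 in T-ETV1 (SD, n = 4) and 6297 ± 840 in WT (SD, n = 3). Without both C arrays, which held the most signal of basal and endothelial markers in their groups, the Azgp1 difference was -0.19. The remaining arrays still differed in these markers. Endothelial sums were 155, 102 and 84.8 in T-ETV1 A, B and D against 1063 and 1473 in WT A and B. Basal sums were 553, 1271 and 1482 against 5088 and 12206. The part of other cells in the difference of Azgp1 was not tested.

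The span of each member over the arrays is given here as a property of its probe set. Close to the ceiling of the signal a small span does not show that expression was steady. Among the 242 probe sets with a mean intensity of 8000 or more, the median span from lowest to highest array was 0.11 on the log2 scale. Tgm4 and Pbsn each spanned 0.06, with 215 and 213 of the 242 spanning more. Msmb spanned 0.18 and Spink1 0.21, with 46 and 35 above them. The Sbp/Sbpl probe set spanned 0.29 (21 above it) and Azgp1 0.38 (10 above it). Probe sets at lower intensity spanned more: the median was 0.21 between 4000 and 8000, and 0.46 between 1000 and 4000.

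**Figure D3:**
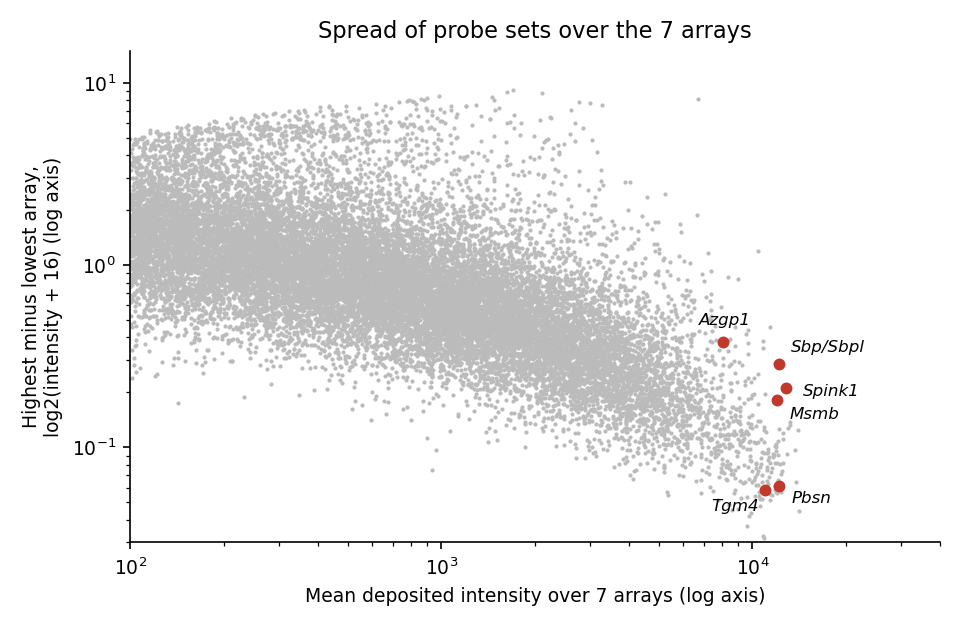
Each grey point is a probe set with a mean intensity of 100 or more, placed by that mean (horizontal, log axis) and by the log2 span over the 7 arrays (vertical, log axis). The members are red and lie at the right edge, with Tgm4 and Pbsn at a span of 0.06 and Azgp1 at 0.38.

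Of the 15 pairs of members, the Sbp/Sbpl probe set and Spink1 varied most alike over the 7 arrays. Pearson's r was 0.847 (exact permutation p = 0.00357, 0.0536 adjusted over the 15 pairs) and Spearman's rho was 0.929 (exact permutation p = 0.00675, adjusted 0.101), so the pair did not pass. Without T-ETV1 C and WT A, the 2 arrays farthest from the median of Sbp/Sbpl, r was 0.810. Both genes were high in T-ETV1 A, T-ETV1 B and WT C and low in WT A and T-ETV1 C, so the likeness crossed the genotypes, and r of the deviations from the group means was 0.847. After quantile normalization r was 0.695 (exact permutation p = 0.0873). Under that setting Tgm4 and Spink1 had r = -0.874 (exact permutation p = 0.0111, adjusted 0.167; -0.51 without 2 arrays), against 0.04 as deposited. On the deposited values none of the other 14 pairs had an exact permutation p under 0.05 for r, the next being Msmb and Azgp1 (r = -0.687, p = 0.117, adjusted 0.842; -0.17 without 2 arrays).

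**Figure D4:**
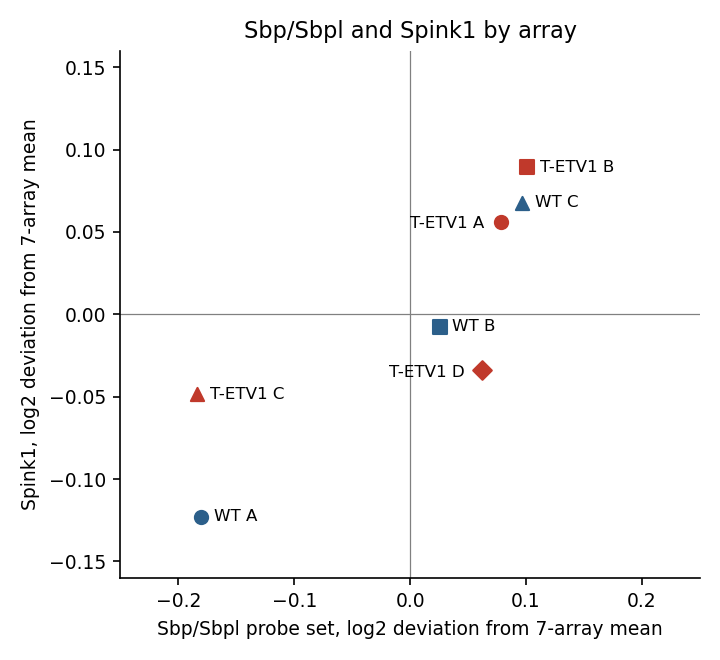
Deviation of the Sbp/Sbpl probe set (horizontal) and of Spink1 (vertical) from their 7-array means, both in log2(intensity + 16), 1 point per array, T-ETV1 red and WT blue. T-ETV1 C and WT A are at the lower left, at -0.18 on the horizontal axis.

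Genes whose pattern over the 7 arrays was most like that of each member were sought among 10213 named genes with a mean intensity of 100 or more, as a description. Pbsn was most like G3bp2, Ppp2cb and Scin (r = 0.981, 0.970 and 0.955), and Tgm4 like Rpl41, a ribosomal protein gene, Scube2 and Magi1 (0.990, 0.955 and 0.943). Msmb was most like Cckar, a cholecystokinin receptor, Treh, which encodes trehalase, and Glrx, a glutaredoxin (0.976, 0.955 and 0.954). The Sbp/Sbpl probe set was most like Uri1 (0.979), the solute carrier Slc5a8 (0.976) and then the Golgi gene Tgoln1. Azgp1 was most like Med9, a Mediator subunit, Arhgap25 and Dolpp1 (0.988, 0.967 and 0.962), and Spink1 like Sdcbp, Trpc4ap and Snx7 (0.970, 0.967 and 0.962). The amplitudes differed, since Slc5a8 spanned 3.51 on the log2 scale over the arrays and Sbp/Sbpl 0.29. The points share 7 arrays and their scaling. These r values are the highest among 10213 candidates over 7 arrays, so they can be high from that choice alone.

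Other secreted proteins of the prostate were measured with 17 of the 19 genes listed, of which 9 were higher and 8 lower in T-ETV1, with a median log2 difference of 0.00. None passed the threshold. The gene with the smallest p was Spink8, a Kazal-type inhibitor, at 4527, 2785, 3643 and 3513 in T-ETV1 A to D, against 5669, 5262 and 3890.0 in WT A to C. Its log2 difference was -0.45 ± 0.21 (limma adjusted p = 0.822), and the groups overlapped through WT C. Pigr, the receptor that carries immunoglobulins across epithelia, had a difference of 0.41 ± 0.32 (limma adjusted p = 0.891), and Cdcp3 one of 0.19 ± 0.15 (0.897). Npc2, which encodes a cholesterol-binding protein, had a difference of 0.11 ± 0.10 with T-ETV1 higher in all arrays, but 1 of its 4 probe sets had the opposite sign. Some genes of this list spanned as little as the members: the highest array was 1.05 times the lowest for Agr2, a protein disulfide isomerase of secretory cells, and 1.07 times for 9530002B09Rik. Others varied, such as Tff3, a trefoil factor (13.4 times), and Ltf, which encodes lactoferrin (15.6 times, at intensities of 4.82 to 75.3).

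The seminal vesicle is the gland next to the prostate, and its secretory genes were listed for comparison. All 9 measured of 11 listed were higher in T-ETV1, against 8075 of all 18193 genes. The median log2 difference of the 9 was 0.99, and none passed. Several, among them Svs4, Svs6, Spinkl, Svs3a and Ceacam10, were lowest in WT C among the WT arrays, so the 9 signs are not independent. Svs5 had 12314, 12919.5, 12198 and 12295 in T-ETV1 A to D, against 10561, 11085 and 11161 in WT A to C. Its groups did not overlap, and the log2 difference was 0.18 ± 0.09 (limma adjusted p = 0.833). Svs6 had 929, 5223, 3784 and 1401 in T-ETV1 A to D, against 1278, 1924 and 230.2 in WT A to C. Spinkl, a Kazal-type inhibitor of the seminal vesicle, had 2456, 5900.2, 4664 and 129 in T-ETV1, against 3133, 2519 and 74.3 in WT. Both were lowest in WT C in the WT group, an array in which no prostate member was the lowest of its group except Azgp1. The highest array was 1.22 times the lowest for Svs5, 1.25 times for Pate4 and 1.28 times for Svs2, within the span of the prostate members (up to 1.30 times). These 3 genes had means over 8000 in both groups, but so did Svs4 (11664 in T-ETV1, 8679 in WT), which spanned 2.30 times. The other 6 spanned more, among them Spinkl at 79.4 times, Svs3a at 156 times and Sva at 643 times. The difference between the lists in span was not tested.

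**Figure D5:**
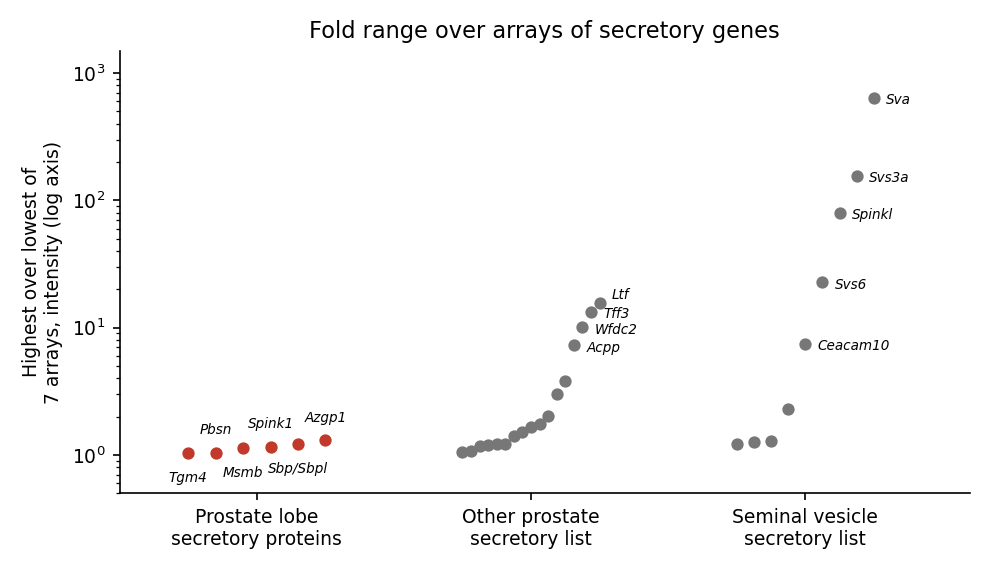
Highest over lowest intensity of the 7 arrays for each gene (vertical, log axis), 1 point per gene and in rising order within a list, for the 6 prostate members (red), 17 other prostate secretory genes and 9 seminal vesicle genes (grey). The members lie between 1.04 and 1.30, and the seminal vesicle genes between 1.22 (Svs5) and 643 (Sva).

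Relatives of the members in their protein families were also measured. A mean intensity over 100 was found for 2 of 7 transglutaminases, 4 of 7 Kazal-type inhibitors and 3 of 14 lipocalins. Of the 7 measured transglutaminases 2 were higher and 5 lower in T-ETV1 (median log2 difference -0.11), none past the threshold. Tgm2, the tissue transglutaminase, had 207, 447, 6427 and 295 in T-ETV1 A to D, against 3297, 4633 and 6063 in WT A to C. T-ETV1 C lay above all WT arrays and the other 3 T-ETV1 arrays below them. The log2 difference was -2.75 ± 1.15 (limma adjusted p = 0.812), and 1 of its 6 probe sets had the opposite sign. Without T-ETV1 C it was -3.84 ± 0.34 and passed (adjusted p = 0.0366), as it did without both C arrays (-3.63, adjusted p = 0.0472). T-ETV1 A, B and D also had the lowest sums of basal and endothelial markers among the 7 arrays. The part of other cells in the values of Tgm2 was not tested. Of 7 Kazal-type inhibitors other than Spink1, a list that shares Spink8 and Spinkl with those above, 3 were higher and 4 lower (median -0.16), with Spink10 at -0.91 ± 0.48. Of 14 lipocalin family genes other than Pbsn, 7 were higher and 7 lower (median 0.01). Apod, which encodes apolipoprotein D, had 190.2, 291, 860 and 389 in T-ETV1 A to D, against 1963, 1528 and 7293 in WT A to C. Its log2 difference was -2.86 ± 0.68 (limma adjusted p = 0.628), with groups that did not overlap. All 7 fibroblast markers were also lower in T-ETV1 in the fit, with their highest sum in WT C, and the part of fibroblasts in the values of Apod was not tested. Zg16, which shares a jacalin-like domain with Sbp, had a mean of 11.9 in T-ETV1 and 18.4 in WT and a log2 difference of -0.26 ± 0.26, with 1 of its 3 probe sets opposite in sign.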

How the data were processed

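Per the labels' protocols, RNA of sorted luminal cells was taken up in Trizol and amplified with a NuGEN kit before array hybridisation. The authors deposited a linear intensity for each probe set in each array; how probes were summarised and arrays scaled is not given in the sources used here. Median intensities lay between 48.5 and 73.7, and array medians of log2(intensity + 16) differed by at most 0.476, under the limit of 0.5 set for keeping the deposited scaling. The number of arrays limits the precision.

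Gene names came from the platform's annotation table (probe sets: 34945 with 1 symbol, 932 with several, 9160 not listed), and 34741 of those with 1 symbol matched a RefSeq gene table of GRCm38.p6 by gene ID and took its symbol. The probe set with the highest mean stood for a gene, which left 18193 genes. Differences on the log2(intensity + 16) scale were fitted by limma (version 3.58.1, R version 4.3.3; lmFit and eBayes, two-sided, Benjamini-Hochberg). This understates changes of dim genes. The fit for Sbp/Sbpl ran over all 45037 probe sets, because gene-level values used probe sets with 1 symbol. Exact permutation tests used the 35 splits of the arrays, with p as the doubled smaller tail, and correlations all 5040 pairings. The limma script was tested on simulated data.

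The members and lists were chosen with earlier results of these data known. Named genes are the members, up to 4 genes of each list with the smallest p, and the 3 genes most like each member. Further list genes were chosen after their values were seen (Agr2, 9530002B09Rik, Tff3, Ltf, Pate4, Svs2, Svs3a, Sva, Cd52 and Mylk). Spinkl was among the 4 of the Kazal-type inhibitors, and its description with the seminal vesicle genes was also chosen after its values were seen. Same-lettered arrays of the groups deviated together (correlation of deviations from the group means 0.281 for A, 0.217 for B and 0.356 for C, each over the limit of 0.1). Arrays of unlike letters also passed that limit in T-ETV1 D with WT A (0.187). The letters come from the labels. Some listed genes are not reported here.

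Results were recomputed with the replicate block, with array weights, with trend and robust eBayes, after quantile normalization or median centring, with pseudocounts of 1 and 64, without the dimmest 30% of genes, with probe sets averaged per gene, and without each array or both C arrays.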

Additional observations from a re-analysis of the deposited data

Results flagged for a closer look

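The 6 members and the genes named by p from the secretory, family and export lists, 30 in all, were checked for an array far from the rest of its group. In 3 of them 1 of the 4 T-ETV1 arrays lay apart on the linear intensity scale. Chance gives about 1 in 20 for normally distributed values, which linear intensities need not be. The check was not repeated on the log2 scale, so the 3 are not read as an excess. For the Sbp/Sbpl probe set this was T-ETV1 C, at 10661 against 12644 to 12993 in the other T-ETV1 arrays (its gap to the nearest, divided by the range of the 4, was 0.850, past Dixon's critical value). WT A was at a like level, 10687. For Tgm2 it was again T-ETV1 C, at 6427 against 207 to 447 (0.961). On that linear scale T-ETV1 C also stood apart as the highest T-ETV1 array for 10 of the 14 basal and endothelial markers. Among all 49 cell type markers it did so for 17. The share of all genes for which T-ETV1 C stands apart was not computed. The part of other cells in the Tgm2 value was not tested. For Svs5, a seminal vesicle secretory protein, it was T-ETV1 B, at 12919.5 against 12198 to 12314 (0.839).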

How the results depend on the processing

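No member passed the threshold under any alternative run, 17 for each member and 16 for Sbp/Sbpl, which has no mean over probe sets. Azgp1 was lower in T-ETV1 under all 17 (-0.21 to -0.04, smallest adjusted p 0.467 with array weights), and Msmb was higher under all 17 (0.015 to 0.19). The SE of Azgp1 depended on how limma shares the spread, at 0.11 in the main fit and 0.07 with trend and robust eBayes. The latter gave its smallest unadjusted limma p, 0.0282 (adjusted p 0.808). In that fit 1121 of 18193 genes had an unadjusted p under 0.05. The sign of Pbsn turned with median centring (0.13), with array weights (0.0015), with the replicate block (0.0021), without both C arrays (0.0054), and in 2 of the 7 settings that left out 1 array (range -0.0177 to 0.0051). Tgm4 turned with median centring (0.12), and its range without single arrays was -0.02 to -0.0046. Without single arrays Sbp/Sbpl ranged over -0.0466 to 0.10 and Spink1 over -0.0142 to 0.081, both turning without WT A. Paired by letter, the replicate block gave -0.21 for Azgp1 and changed no call of a member. Median centring moved the median difference of all genes to 0.11, against -0.03 as deposited. Centring subtracts 1 value per array from every probe set, so it adds a shared shift to members that vary little. By Pearson's r, 7 of the 15 member pairs then correlated past the threshold, against 0 as deposited. By Spearman's rho, Msmb and Spink1 (exact permutation p adjusted over the pairs 0.0731) and Tgm4 and Spink1 (0.0595) did not. Over all genes 0 passed as deposited, 27 without T-ETV1 C, 7 without WT C and 68 without both C arrays, so that leaving out 1 array gave 0 to 27. Of the list genes, 1 (Tgm2) passed without T-ETV1 C and without both C arrays, and 0 to 1 without single arrays. The causes of these changes were not tested. Signal near the top of the arrays limits what can be seen of the members.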

Other observations

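Of 34 measured genes for translocation into the endoplasmic reticulum, signal peptide cleavage and transport to the Golgi, 25 were higher and 9 lower in T-ETV1, with a median log2 difference of 0.03, and none passed the threshold. Over all genes 8075 were higher and 10118 lower, with a median of -0.03. Creb3l1, a transcription factor of secretory capacity, averaged 615 ± 221 in T-ETV1 (SD, n = 4) and 407 ± 47.8 in WT (SD, n = 3), a log2 difference of 0.52 ± 0.26 (limma adjusted p = 0.843). T-ETV1 D was at 935 against 428 to 562 in the other T-ETV1 arrays, and the groups overlapped (WT 366 to 460). Creb3l4, a relative of Creb3l1 found in the prostate, averaged 643 ± 144 in T-ETV1 (SD, n = 4) and 508 ± 28.6 in WT (SD, n = 3), a difference of 0.30 ± 0.20 (limma adjusted p = 0.880). For Creb3l4, T-ETV1 C at 432 lay below all WT arrays (482 to 539). Of the 8 luminal markers measured, 4 were higher and 4 lower in T-ETV1 (median log2 difference 0.01). Among them Epcam, an epithelial adhesion molecule, had the smallest p, at -0.26 ± 0.14 (limma adjusted p = 0.851), and 1 of its 2 probe sets had the opposite sign. Of 6 proximal luminal markers measured, 1 was higher and 5 lower (median -0.38). Their sums overlapped, at 6407 to 15039 in T-ETV1 and 7487 to 14187 in WT. Psca, a surface protein of proximal luminal cells, had the smallest p of these, at -1.43 ± 0.87 (limma adjusted p = 0.876).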
